A study of Homo sapiens with 36 samples.

Results

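The 10 genes described here carry cells from G1 into S phase: *MCM2*, *MCM3*, *MCM4*, *MCM5*, *MCM6* and *MCM7*, the subunits of the replicative helicase, *CDC6* and *CDT1*, which load that helicase onto DNA, and *CCNE1* and *CCNE2*, which encode cyclin E1 and cyclin E2. They were taken by gene symbol from the 61587 genes of a table of RNA sequencing counts, and all 10 were present and passed the filter on low counts. The list was chosen with earlier results of these data known. The table covers the human cell line HEK293T, derived from embryonic kidney, and all 36 libraries come from cells with a knockout (KO) of *TXNL1*, a thioredoxin-like protein that binds the proteasome. According to the methods, KO cells were sorted singly and grown out as clones, without a statement of how many clones were used here, and the added genes were delivered by lentivirus from a CMV promoter. The 4 lines carried an empty vector, wild-type (WT) TXNL1, a DR-RD mutant that no longer binds the proteasome or an SxxS mutant of the thioredoxin active site. Each line was given DMSO, 100 µM sodium arsenite or 600 µM hydrogen peroxide (H2O2) for 6 h, and both oxidants cause oxidative stress. The labels name DMSO where the study writes untreated. Its stocks were in DMSO or water, without a statement of which agent was in which. The labels give no dose or time, so these are from the methods. With 3 replicates each, there were 12 groups, and parental cells with *TXNL1* are not analysed here.

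Licensing takes place in late mitosis and G1. The origin recognition complex marks origins, CDC6 joins it, and CDT1 brings in the ring of MCM2 to MCM7, which is loaded around DNA as an inactive double hexamer. Cyclin E with CDK2 then drives the G1/S transition and the firing of licensed origins, while degradation of CDT1 and its inhibitor geminin keep new licensing off until the next division. The genes are classic targets of E2F transcription factors, which the RB protein holds in check. HEK293T cells express viral proteins that bind RB and p53.

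Total counts ran from 42072410 to 174119002 per library with a median of 66016833. In single libraries the 10 genes had between 628 counts (*CCNE2*) and 103675 counts (*MCM7*), so counting error was small. WT arsenite replicate 1 and WT H2O2 replicate 2 stood apart from their replicates: the SD of log2 CPM around the group median was 0.542 and 0.617 in them and 0.0723 to 0.184 in the other 34 libraries, over 14980 genes. CPM here is the count scaled to a common library size in the usual way, after TMM adjustment by edgeR. For the 10 genes, calls that change without those 2 libraries are given with and without them. For the related lists such counts are given for H2O2 only, and the counts with arsenite also moved in some lists. WT arsenite replicate 1 had the lowest value of the 12 arsenite libraries for *MCM2*, *MCM4*, *MCM6*, *CDC6* and *CCNE2* and the highest for *MCM7* and *CDT1*, and WT H2O2 replicate 2 had the lowest of the 12 H2O2 libraries for *MCM4*, *MCM6* and *CCNE2* and the highest for *MCM3*, *MCM5*, *MCM7*, *CDT1* and *CCNE1*. *TXNL1* was lower in every vector library (28.6 to 31.7 CPM with DMSO) than in every complemented library of the same treatment (51.7 to 66.2 CPM with DMSO), so the vector and complemented lines matched their labels. Of the markers of HEK293T cells, NEFL reached 3.12 CPM, PAX2 0.838 CPM and NEFM 0.296 CPM at most, with medians of 1.91, 0.424 and 0.129 CPM. Markers of blood, liver and endothelial cells stayed at or below 1.02 CPM (LYZ), which is above the maxima of PAX2 and NEFM. These low levels do not identify the cells by themselves. In bulk RNA, a change in the share of cells in a cell cycle phase cannot be told apart from a change in transcript per cell.

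Promoter windows were searched for words that E2F factors are known to bind, since the genes are known E2F targets. Matches could be foreseen from this choice of genes, and a part of E2F in the responses below was not tested. RefSeq windows on GRCh38.p14, from 250 bases before to 50 bases after a transcription start, were at hand for 7 of the 10 genes, and not for *MCM4*, *MCM5* and *CCNE2*. The words were TTTCCCGC, TTTCGCGC, TTTGCCGC and TTTGGCGC on either strand. The 7 genes have 9 windows, of which 3 belong to *MCM7*. At least 1 word occurred in 6 of these 9 windows (66.7%) and in 3.31% of 35116 windows of all genes. By gene, 6 of the 7 had a window with a word, all but *CCNE1*. In *MCM6*, 2 words that overlap on opposite strands form a block of 12 bases, and this block occurs 2 times, starting 152 and 90 bases before the start. *CDT1* has 1 word, 35 bases before the start, and the words of *MCM2* and *CDC6* begin after the start, within the first 10 transcribed bases. The 250 bases before the start are printed for *MCM6*, *CDT1* and *CCNE1*, which hold 4, 1 and 0 words there. They read 5′ to 3′ on the strand of the gene with E2F words in capitals.
MCM6, chr2:135876444-135876693, minus strand: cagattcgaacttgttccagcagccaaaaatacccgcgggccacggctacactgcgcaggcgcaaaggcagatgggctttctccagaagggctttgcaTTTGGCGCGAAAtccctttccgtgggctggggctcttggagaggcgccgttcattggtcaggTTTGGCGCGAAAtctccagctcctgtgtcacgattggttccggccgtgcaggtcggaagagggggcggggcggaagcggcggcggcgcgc
CDT1, chr16:88803539-88803788, plus strand: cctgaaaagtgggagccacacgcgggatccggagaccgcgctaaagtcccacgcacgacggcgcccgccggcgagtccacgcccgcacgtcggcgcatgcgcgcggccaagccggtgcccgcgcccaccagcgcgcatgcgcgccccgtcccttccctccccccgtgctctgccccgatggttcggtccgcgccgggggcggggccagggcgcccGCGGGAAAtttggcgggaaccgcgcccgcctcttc
CCNE1, chr19:29811741-29811990, plus strand: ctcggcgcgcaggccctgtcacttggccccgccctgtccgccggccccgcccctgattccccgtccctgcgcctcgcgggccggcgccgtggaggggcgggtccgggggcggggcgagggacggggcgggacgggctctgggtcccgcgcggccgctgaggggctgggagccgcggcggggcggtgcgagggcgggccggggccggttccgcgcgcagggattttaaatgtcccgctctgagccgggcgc

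The CCAAT box (CCAAT on either strand) was in 6 of the 9 windows (66.7%), those of *MCM3*, *MCM6*, *MCM7* and *CDC6*, and in 34.6% of all windows. The CHR element of genes expressed in G2 and mitosis (TTTGAA or TTCGAA on either strand) was in 1 of the 9 windows (11.1%), that of *MCM6*, and in 16.4% of all windows. A match is a description of these letters, and a window without one says nothing about E2F.

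The genes lie on 9 chromosomes of GRCh38 (positions from GENCODE release 44). *MCM2* is at chr3:127598410-127622436 on the plus strand, *MCM3* at chr6:52264014-52284881 on the minus strand, *MCM4* at chr8:47960185-47978160 on the plus strand, *MCM5* at chr22:35400134-35425431 on the plus strand, *MCM6* at chr2:135839626-135876443 on the minus strand and *MCM7* at chr7:100092233-100101940 on the minus strand. *CDC6* is at chr17:40287879-40304657 and *CDT1* at chr16:88803789-88809258, both on the plus strand. *CCNE1* is at chr19:29811991-29824312 on the plus strand and *CCNE2* at chr8:94879770-94896678 on the minus strand. Exons of a gene on the opposite strand cover 23.6% of the exonic bases of *MCM2* and 37.1% of those of *CCNE2* (*INTS8* and ENSG00000272509), and *AP4M1* with the microRNA gene *MIR93* covers 8.5% of those of *MCM7*. Counting by strand is not stated, so reads of these neighbours may be included. The exons of the other 7 genes overlap no other gene.

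Transcript levels per length of exon (RPKM, CPM divided by the deposited gene length in kilobases) spanned a wide range with DMSO. Over the 12 DMSO libraries the median level was 119 RPKM for *MCM7*, 108 for *MCM3*, 97.9 for *MCM2*, 73.8 for *MCM4*, 68.3 for *MCM6*, 40.9 for *CDT1*, 39.3 for *MCM5*, 19.2 for *CDC6*, 17.6 for *CCNE1* and 5.92 for *CCNE2*. The ranges over the 12 libraries overlapped for *MCM7* and *MCM3*, *MCM4* and *MCM6*, *CDT1* and *MCM5*, and *CDC6* and *CCNE1*, and not for other neighbours. Compared within each of the 12 libraries, *MCM7* was always above *MCM3*, *MCM4* above *MCM6* and *CDC6* above *CCNE1*. *CDT1* was above *MCM5* in every DMSO library but WT replicate 2 (37.0 against 37.1 RPKM). The 6 subunits of the hexamer, present once each in the ring, thus had transcript levels from 39.3 to 119 RPKM. The deposited lengths of *MCM4* and *MCM7* differ from those in GENCODE release 44, so their place in the order depends on the annotation. For the other genes the deposited length equals the union of all exons in that release, whichever transcripts are expressed. *MCM5* has 7268 bases and *MCM6* 4135, at median levels of 286 and 282 CPM with DMSO. The gap between their RPKM values thus follows from the length used.

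**Figure D1:**
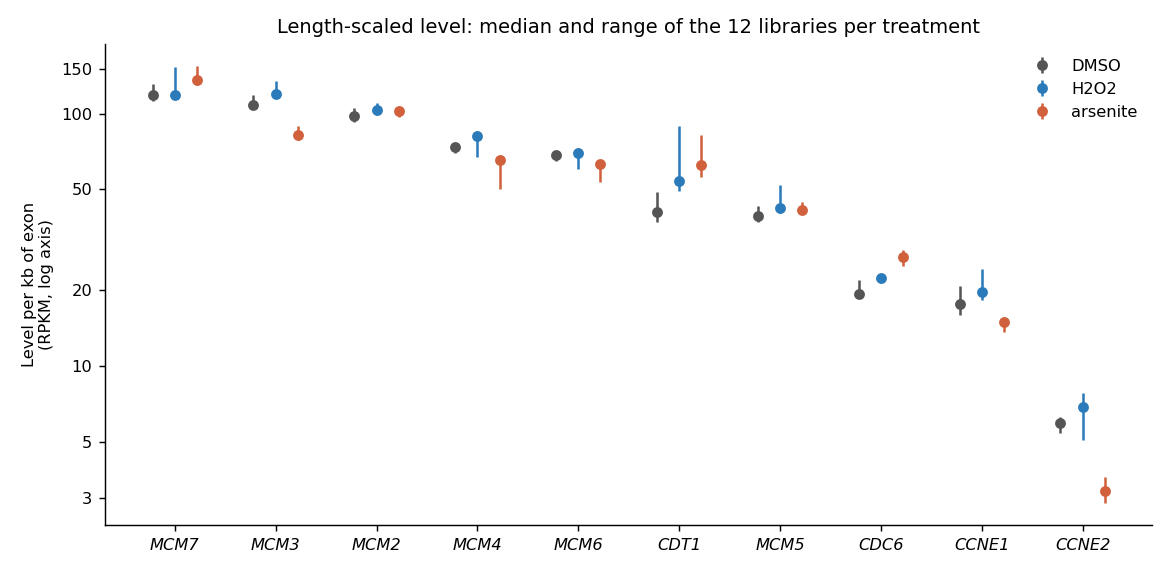
Length-scaled transcript level (RPKM, log axis) of each gene, with the median of the 12 libraries of a treatment as a point and their range as a bar. *MCM7* and *MCM3* lead with DMSO at 119 and 108 RPKM and *CCNE2* is lowest at 5.92 RPKM, and *CCNE2* with arsenite lies below every DMSO library.

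Arsenite moved the 10 genes in both directions. Averaged over the 4 lines, the licensing factors *CDT1* and *CDC6* rose, 3 of the 6 helicase genes rose slightly (*MCM7*, *MCM5* and *MCM2*) and the other 3 fell (*MCM3*, *MCM4* and *MCM6*), and both cyclin E genes fell, *CCNE2* most. Thus 5 genes rose and 5 fell when genes with an adjusted p under 0.05 are called, using the quasi-likelihood test of edgeR. Arsenite changed much of the transcriptome, with 37.4% of 22486 tested genes higher and 31.5% lower, so being called is common here and only the size and direction tell the genes apart. The median log2 fold change was −0.03 over the 10 genes and 0.06 over all tested genes.

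*CDT1*, the factor that recruits the MCM ring to origins, ranged from 102 to 135 CPM with DMSO (median 113) and from 155 to 226 CPM with arsenite (median 173). All 12 arsenite libraries lay above all 12 DMSO libraries, and the highest was the outlying WT arsenite replicate 1. The log2 fold change was 0.64 (SE 0.06, adjusted p = 2.44e-10), a level 1.55 times that with DMSO, and it was 0.57 without both outlying libraries. Of all tested genes, 84.8% had a log2 fold change below that of *CDT1*. *CDC6*, the ATPase that joins the origin recognition complex, ranged from 98.6 to 116 CPM with DMSO (median 102) and from 132 to 153 CPM with arsenite (median 143). Again no library overlapped between the treatments, and the log2 fold change was 0.47 (SE 0.02, adjusted p = 1.20e-16).

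Within the helicase, *MCM3* changed most. Its level was 385 to 433 CPM with DMSO (median 395) and 287 to 325 CPM with arsenite (median 299.9), with no overlap between the 12 libraries of each. This gave a log2 fold change of −0.40 (SE 0.02, adjusted p = 2.16e-15). *MCM4* ranged from 488 to 534 CPM with DMSO (median 515) and from 352 to 475 CPM with arsenite (median 457), where the lowest value was that of WT arsenite replicate 1. Its log2 fold change of −0.19 (SE 0.04, adjusted p = 4.98e-05) was −0.18 without both outlying libraries. *MCM6* ranged from 268 to 291 CPM with DMSO (median 282) and from 221 to 266 CPM with arsenite (median 260.0), again without overlap and with WT arsenite replicate 1 lowest. Its log2 fold change was −0.13 (adjusted p = 1.04e-04), also without both outlying libraries.

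*MCM7* moved the other way, from 491 to 573 CPM with DMSO (median 520.4) to 571 to 678 CPM with arsenite (median 596). Only 1 DMSO library, DR-RD replicate 3, reached the arsenite range. The log2 fold change was 0.21 (SE 0.04, adjusted p = 8.64e-06), or 0.18 without both outlying libraries. *MCM2* (435 to 495 CPM with DMSO, 458 to 497 with arsenite) and *MCM5* (269.9 to 313 with DMSO, 289 to 325 with arsenite) overlapped between the treatments. Their log2 fold changes of 0.07 (adjusted p = 0.0095) and 0.08 (adjusted p = 0.0284) lie close to the median of 0.06 over all genes, and neither gene was called with DESeq2's size factors (0.05 and 0.06) or with total counts as the scale (0.03 and 0.04). *MCM5* was also not called when WT DMSO replicate 2, DR-RD DMSO replicate 1, SxxS DMSO replicate 1 or 2, vector arsenite replicate 1 or SxxS arsenite replicate 2 was left out, with adjusted p-values of 0.0507 to 0.0579. Subunits of one ring therefore differed in direction, with *MCM3* and *MCM7* at the ends.

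The cyclin E genes encode the regulatory subunits of CDK2 at G1/S. *CCNE2* was 23.7 to 27.6 CPM with DMSO (median 26.0) and 12.6 to 15.9 CPM with arsenite (median 14.0). The ranges were far apart in every line, and the log2 fold change of −0.88 (SE 0.04, adjusted p = 4.03e-17) is a level of 0.544 times that with DMSO, with 8.7% of tested genes below it. *CCNE1* was 39.0 to 50.8 CPM with DMSO (median 43.2) and 33.6 to 38.5 CPM with arsenite (median 36.5), without overlap, and its log2 fold change was −0.27 (SE 0.03, adjusted p = 1.75e-09).

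**Figure D2:**
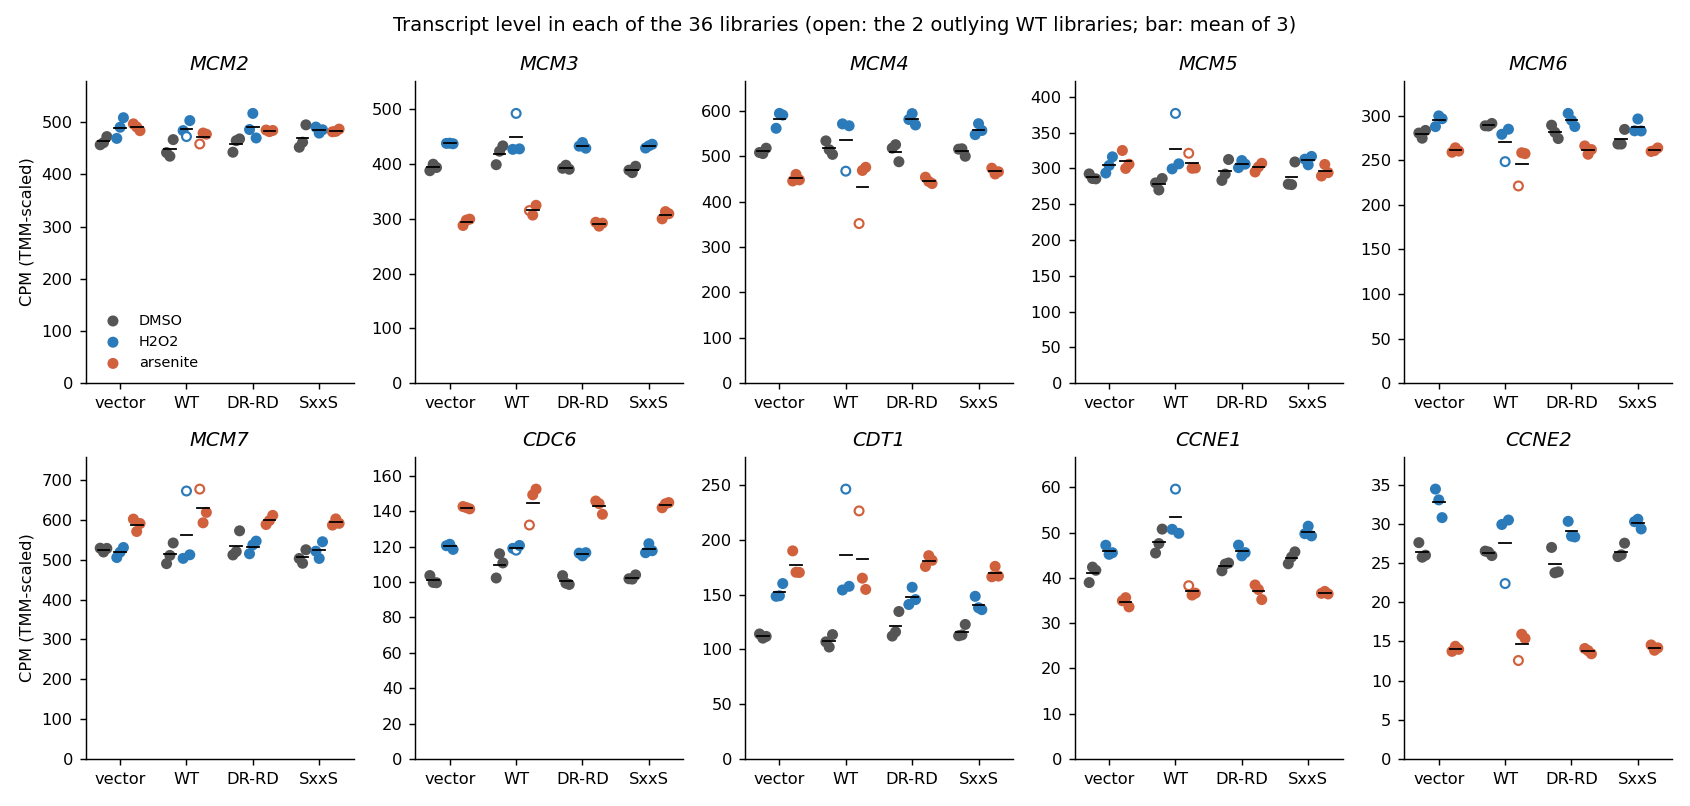
Transcript level (CPM, axes from 0) of each gene in all 36 libraries by line and treatment, with a bar at the mean of 3 replicates and open symbols for WT H2O2 replicate 2 and WT arsenite replicate 1. *CCNE2* with arsenite stays between 12.6 and 15.9 CPM in every line, *CDT1* is above DMSO with both agents, and the open symbols reach 246 and 226 CPM for *CDT1*.

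With H2O2 all called changes were upward. All 10 had a log2 fold change above 0, and 8 of them rose at an adjusted p under 0.05, against 6.78% of tested genes higher and 5.3% lower. None fell. The median log2 fold change was 0.14 over the 10 genes and 0.00 over all tested genes (0.005). The exceptions were *MCM6*, at 0.03 (95% CI −0.02 to 0.08, adjusted p = 0.565), and *MCM7*, at 0.04 (95% CI −0.04 to 0.11, adjusted p = 0.602). Without both outlying WT libraries the same 8 genes were called, with 14.7% of tested genes higher in that fit, and *MCM7* was at −0.0041.

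*CDT1* had the highest log2 fold change of the 10 genes, with 136 to 246 CPM (median 149) against 102 to 135 CPM with DMSO. No library overlapped between the treatments, and apart from the 246 CPM of the outlying WT H2O2 replicate 2 no H2O2 library was above 160.1 CPM. This is a log2 fold change of 0.45 (SE 0.06, adjusted p = 5.71e-06) and 0.38 without both outlying libraries, and 97.4% of tested genes were below it. *CDC6*, at 115 to 122 CPM (median 118), rose by a log2 fold change of 0.20 (SE 0.02, adjusted p = 1.19e-06), and 1 DMSO library (WT replicate 2, 116 CPM) reached into that range.

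Of the cyclin E genes, *CCNE2* was 22.4 to 34.4 CPM with H2O2 (median 30.3), and the lowest was the outlying WT H2O2 replicate 2. The other 11 libraries were all above the highest DMSO library (27.6 CPM). *CCNE2* thus had a log2 fold change of 0.20 (SE 0.04, adjusted p = 0.00201), and 0.22 without both outlying libraries. *CCNE1*, at 44.9 to 59.6 CPM (median 48.3), with WT H2O2 replicate 2 highest, overlapped with the DMSO libraries. Its log2 fold change was 0.15 (SE 0.03, adjusted p = 6.18e-04), and 0.12 without both outlying libraries.

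Of the helicase genes, 4 rose. WT H2O2 replicate 2 gave the lowest value of *MCM4* and the highest of *MCM3* and *MCM5*. *MCM4* went to 467 to 594 CPM (median 569.9, log2 fold change 0.14, adjusted p = 0.0125) and *MCM3* to 427 to 493 CPM (median 435, log2 fold change 0.14, adjusted p = 1.29e-04). *MCM5* went to 294 to 377 CPM (log2 fold change 0.12, adjusted p = 0.0114) and *MCM2* to 469 to 517 CPM (log2 fold change 0.09, adjusted p = 0.0122). The ranges of all 4 overlapped with DMSO, for *MCM4* only through WT H2O2 replicate 2. Without both outlying libraries the log2 fold changes were 0.16 for *MCM4*, 0.11 for *MCM3*, and 0.09 for both *MCM5* and *MCM2*. With total counts as the scale, *MCM2* (adjusted p = 0.0629) and *MCM4* (adjusted p = 0.0791) were no longer called. Rises of this size, about 1.06 to 1.10 times the DMSO level for the 4 helicase genes, are small beside those of *CDT1*.

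**Figure D3:**
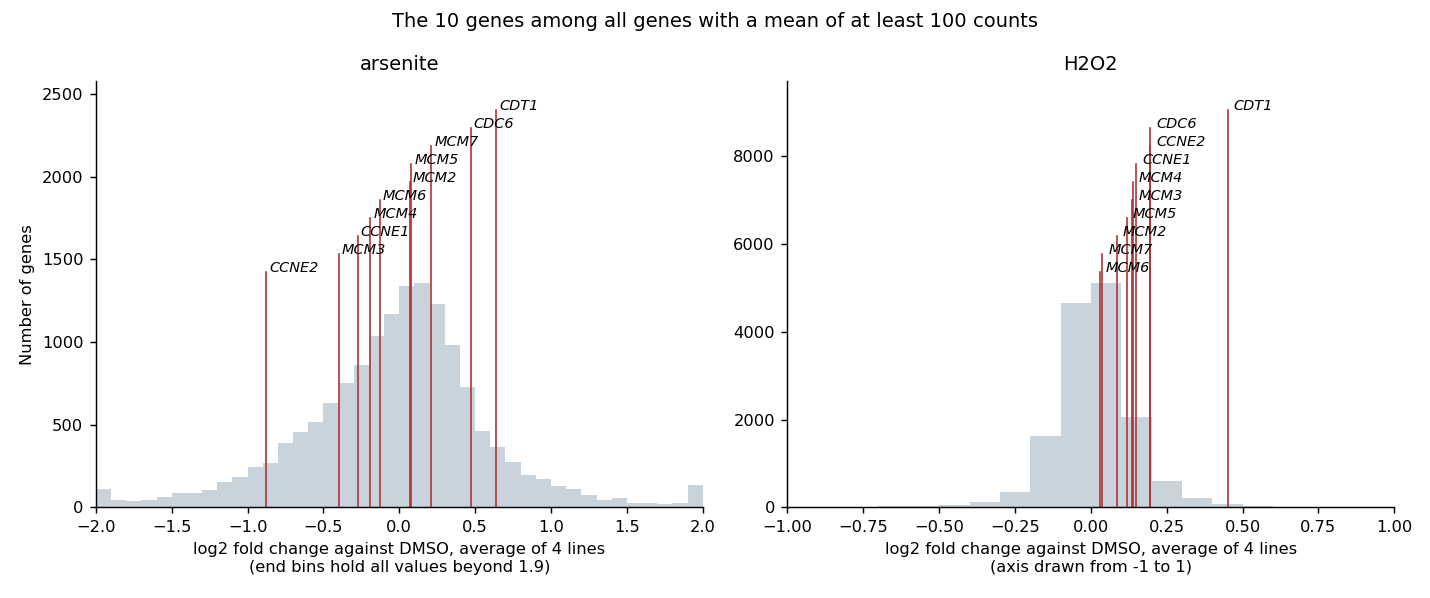
Histogram of the log2 fold change averaged over the 4 lines for genes with a mean of at least 100 counts (number of genes on the vertical axis), with a red line for each of the 10 genes. With arsenite the genes spread from −0.88 to 0.64 within a wide distribution, and with H2O2 they all lie to the right of 0, up to 0.45 for *CDT1*.

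Set against each other, the agents differed for 8 of the 10 genes. Arsenite left *CDC6* (log2 difference 0.27), *CDT1* (0.19) and *MCM7* (0.17) higher than H2O2 did, and *CCNE2* (−1.08), *MCM3* (−0.54), *CCNE1* (−0.42), *MCM4* (−0.33) and *MCM6* (−0.16) lower. In this comparison 37.3% of tested genes were higher and 31.3% lower with arsenite. The level of *CCNE2* with arsenite was 0.475 times its level with H2O2 (adjusted p = 2.86e-19). *MCM2* and *MCM5* did not pass the test, with log2 differences of −0.02 (95% CI −0.06 to 0.03) and −0.04 (95% CI −0.10 to 0.03), although *MCM5* was called lower with total counts as the scale and *MCM2* in DESeq2's test. The comparisons of arsenite and of H2O2 with DMSO share their DMSO libraries.

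Taken line by line, the arsenite response was much alike. With 4 lines and 10 genes, the 3 arsenite libraries were all above the 3 DMSO libraries in 16 of 40 cases, all below in 20 and overlapping in 4, the latter for *MCM2* and *MCM5* alone. Over all tested genes, 31.5% of such cases were all above and 28.5% all below. In the test, *CDC6* and *CDT1* rose and *MCM3*, *CCNE1* and *CCNE2* fell in every line. The vector line had 2 genes higher and 3 lower, against 22.1% and 21.4% of tested genes. The WT line had 3 higher and 5 lower (28.7% and 24.9%), adding *MCM7*, *MCM4* and *MCM6*. The DR-RD line had 2 higher and 4 lower (22.5% and 21.5%), adding *MCM4*, and the SxxS line had 3 higher and 3 lower (22.1% and 21.5%), adding *MCM7*. All groups share 1 estimate of the spread, and the standard errors were smaller without both outlying libraries. In that fit *MCM4*, *MCM6* and *MCM7* were called in every line in the directions above, so that 8 genes were called in the vector line, against 56.4% of tested genes. Without WT arsenite replicate 1 alone, *MCM4* was not called in the WT line (−0.13, adjusted p = 0.0679). *MCM4* in the DR-RD line was not called when any 1 of 5 of its 6 libraries was left out (−0.21 to −0.17, all but DMSO replicate 3), nor was *MCM7* in the SxxS line without DMSO replicate 2 (0.21, adjusted p = 0.0507).

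The values of each library are given for *CCNE2*, the gene with the largest change, which is also the gene with the highest p in the test of a difference among lines (unadjusted p = 0.937). With DMSO it was at 27.6, 25.7 and 26.0 CPM in the vector line, 26.5, 26.4 and 25.9 with WT, 27.0, 23.7 and 23.9 with DR-RD and 25.8, 26.0 and 27.5 with SxxS TXNL1. With arsenite the values were 13.7, 14.4 and 14.0 in the vector line, 12.6, 15.9 and 15.4 with WT, 14.1, 13.8 and 13.4 with DR-RD and 14.5, 13.9 and 14.2 with SxxS. Every arsenite library was thus far below every DMSO library of any line. The log2 fold change was −0.91 (95% CI −1.09 to −0.74) in the vector line, −0.85 (−1.03 to −0.67) with WT, −0.85 (−1.03 to −0.68) with DR-RD and −0.90 (−1.08 to −0.72) with SxxS. The lines lay further apart for *MCM6*, at −0.10, −0.24, −0.11 and −0.07 in the vector, WT, DR-RD and SxxS lines (unadjusted p of the difference among lines 0.130), and for *CCNE1*, at −0.24, −0.37, −0.20 and −0.28 (unadjusted p 0.227).

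Within a line, fewer genes were called with H2O2. The 3 H2O2 libraries were all above the DMSO libraries in 25 of 40 cases, all below in 1 (*MCM6* in the WT line) and overlapping in 14, against 12.8% all above and 11.5% all below over all tested genes. *CDC6* and *CDT1* were above in all 4 lines. In the test, *CDC6* rose in the vector, DR-RD and SxxS lines and *CDT1* and *MCM5* in the WT line, which makes 1 gene higher in the vector line (0.712% of tested genes), 2 in the WT line (5.8%), 1 in the DR-RD line (0.503%) and 1 in the SxxS line (0.409%). None fell. The calls of *CDC6* in the DR-RD and SxxS lines were each lost when any 1 of 5 of the 6 libraries was left out (all but DMSO replicate 1 and H2O2 replicate 1, respectively), at log2 fold changes of 0.19 to 0.22. Without both outlying libraries, 6 genes rose in the vector line (4.84% of tested genes), 4 in the WT line (5.23%), 5 in the DR-RD line (5.51%) and 6 in the SxxS line (2.9%), and *CDT1*, *CCNE2* and *MCM4* were among them in each line. In the DR-RD line, deviations of same-numbered DMSO and H2O2 libraries correlated at r 0.149 to 0.35. DMSO replicate 2 was nearer to H2O2 replicate 1 (0.191) than to its own number (0.149). The labels state no pairing, and a block by replicate number was tried in that line alone after these correlations were seen. Its calls are therefore a description and no independent support. The fit with the block called 5 genes higher (*MCM3*, *MCM4*, *CDC6*, *CDT1* and *CCNE2*), against 5.87% of tested genes. Without the block that fit called 0 of the 10 genes, with an adjusted p of 0.0971 for *CDC6*.

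*CDT1* in the WT line rests in part on one library. It was at 107, 102 and 113 CPM with DMSO and at 154, 246 and 158 CPM with H2O2 in replicates 1 to 3, and all 3 were above DMSO. The log2 fold change of 0.79 (adjusted p = 1.89e-04) became 0.53 (adjusted p = 1.45e-07) without both outlying libraries, against 0.43, 0.29 and 0.28 in the vector, DR-RD and SxxS lines. *MCM5* in the WT line was at 280, 269.9 and 286 CPM with DMSO and at 299, 377 and 306 CPM with H2O2. Its log2 fold change of 0.23 (adjusted p = 0.0211) became 0.11 (adjusted p = 0.10) without both, which ends the call.

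**Figure D4:**
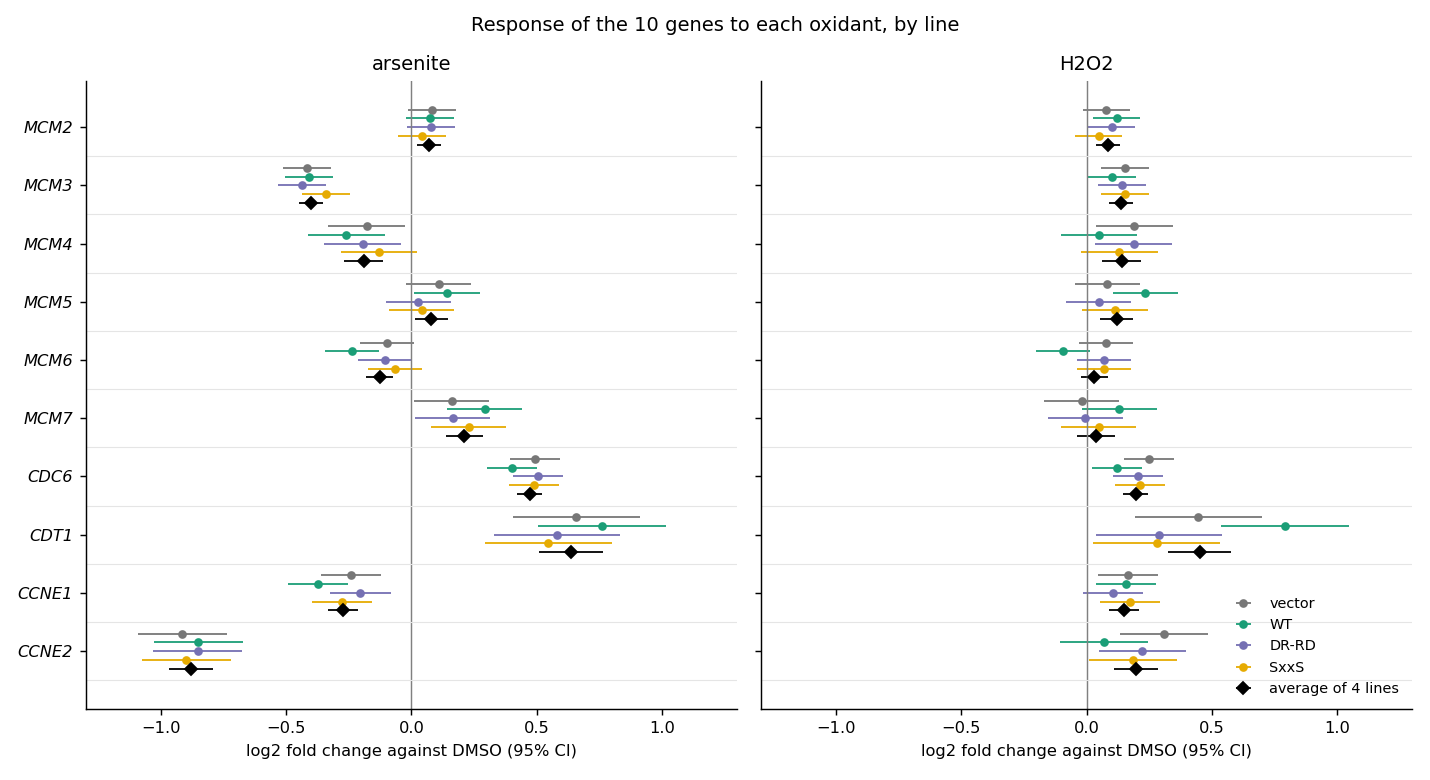
Log2 fold change against DMSO of each gene with its 95% confidence interval (CI), for arsenite (left) and H2O2 (right), in each line and averaged over the 4 lines (diamonds). The intervals of the 4 lines overlap for every gene except *CDT1* with H2O2 (WT against SxxS), *CCNE2* with arsenite lies between −0.91 and −0.85 in all of them, and *CDT1* with H2O2 is at 0.79 in the WT line, or 0.53 without both outlying libraries.

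Whether the response differed among the lines was tested as an interaction over the 4 lines. None of the 10 genes passed for arsenite, where 0% of tested genes did in edgeR's quasi-likelihood test (1432 genes at an unadjusted p under 0.05, and 35 genes called by DESeq2). None passed for H2O2 either, where 0.685% of tested genes did. The smallest adjusted p was 0.807 for arsenite (*MCM6*) and 0.430 for H2O2 (*CDT1*, unadjusted p = 0.0217). DESeq2 called none of the 10 genes in either test.

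With DMSO alone, none of these genes was called between the lines in the fit of all 36 libraries, but *CCNE1* was called in other settings. These were without both outlying libraries, with DESeq2's test and with only the groups compared, each for WT against vector. In the fit of all libraries by edgeR, none was called for WT against vector (0.196% of tested genes), DR-RD against vector (0.0267%) or SxxS against vector (0.0178%). There, 2, 0 and 0 genes, respectively, had an unadjusted p under 0.05. The shares above are at an adjusted p and do not apply to this count, which is a description. The closest was *CCNE1*, at 39.0, 42.4 and 41.7 CPM in the vector line and at 45.5, 47.6 and 50.8 CPM with WT TXNL1, where no library overlapped. The log2 difference was 0.23 (95% CI 0.11 to 0.35, adjusted p = 0.119). Without both outlying libraries, neither of which is a DMSO library, it was 0.23 with an adjusted p of 0.00308, against 2.99% of tested genes. For the other 9 genes and for the other lines the 95% CI included 0, except *CDC6* with WT (0.12, 95% CI 0.02 to 0.22).

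Genes that act before and after licensing were taken from lists of known members. The shares of all tested genes to set beside the counts are those given above, 37.4% higher and 31.5% lower with arsenite and 6.78% and 5.3% with H2O2, or 14.7% and 13.9% with H2O2 without both outlying libraries. Among origin recognition and loading genes, arsenite raised 6 of 8, with a list median of 0.18 against 0.06 for all genes, and lowered 2. *ORC1*, the largest subunit of the origin recognition complex, rose by a log2 fold change of 0.81 (adjusted p = 3.22e-19) and *ORC6* by 0.53 (adjusted p = 2.02e-14), while *GMNN*, which encodes the CDT1 inhibitor geminin, fell by 0.48 (adjusted p = 7.13e-10). With DESeq2's size factors 4 rose and 2 fell. With H2O2, 2 of 8 rose (*ORC1* at 0.23 and *ORC6* at 0.16) and none fell, and 4 rose without both outlying libraries. *MCM8* and *MCM9*, paralogues that form a helicase of their own in recombination repair, both rose with arsenite (0.36 and 0.82), and neither passed the test with H2O2, although 1 of them was called higher without both outlying libraries.

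For helicase activation and origin firing, arsenite raised 5 and lowered 7 of 14 genes, where 37.4% and 31.5% of all tested genes were called. Subunits of the GINS complex, part of the active helicase, moved apart: *GINS1* was at −0.93 (adjusted p = 8.27e-21) and *GINS3* at 0.64 (adjusted p = 6.13e-20), and *RECQL4*, a helicase needed for firing, was at 0.58 (adjusted p = 1.58e-11). With H2O2, 3 rose (*MCM10* at 0.22, *GINS3* at 0.19 and *GINS4* at 0.18) and 2 fell. Without both outlying libraries these H2O2 counts were 8 and 3.

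Of 25 genes of RB, E2F and cyclin-CDK control, arsenite lowered 16 and raised 2, with a list median of −0.41, where 31.5% of all tested genes were lower and 37.4% higher. The transcription factor *E2F2* was at −0.94 (adjusted p = 3.83e-20), the CDK inhibitor *CDKN1B* at −0.90 (adjusted p = 3.49e-19) and the RB relative *RBL1* at −0.90 (adjusted p = 1.42e-09). H2O2 raised 6 and lowered 2 (6.78% and 5.3% of all tested genes), with a median of 0.09, led by the CDK inhibitor *CDKN1A* (0.98, adjusted p = 4.86e-12), *E2F2* (0.46, adjusted p = 1.28e-10) and the cyclin gene *CCND2* (0.35, adjusted p = 1.83e-07). Without both outlying libraries, H2O2 raised 15 and lowered 4 (14.7% and 13.9%). *E2F2*, like *CCNE2*, fell with arsenite and rose with H2O2.

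Of 27 genes of DNA synthesis, arsenite raised 9 and lowered 14 (median −0.07, against 37.4% and 31.5% of all tested genes), with the largest changes in the sliding clamp *PCNA* (−1.01, adjusted p = 1.09e-19), the flap nuclease *FEN1* (−0.77, adjusted p = 1.79e-15) and the ribonucleotide reductase subunit *RRM2* (−0.66, adjusted p = 1.26e-18). H2O2 raised 13 and lowered 3 (median 0.10, against 6.78% and 5.3%), with the chromatin assembly genes *CHAF1A* (0.33, adjusted p = 2.93e-07) and *CHAF1B* (0.25, adjusted p = 6.08e-09) and *PCNA* (0.27, adjusted p = 9.61e-06) ahead. Without both outlying libraries, H2O2 raised 17 and lowered 4 (14.7% and 13.9% of all tested genes). The fall of *PCNA* with arsenite was larger than that of any of the 10 genes.

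Genes of G2 and mitosis gave the opposite picture with H2O2. None of 10 rose and 9 fell, with a list median of −0.46, where 5.3% of all tested genes fell. The mitotic kinase genes *PLK1* (−0.71, adjusted p = 3.07e-18) and *AURKA* (−0.63, adjusted p = 6.42e-18) and the cyclin gene *CCNB1* (−0.60, adjusted p = 4.05e-17) fell most, in the same libraries in which 8 of the 10 licensing and cyclin E genes rose. The part of cell cycle position in these changes was not tested. With arsenite, 3 of the 10 rose and 4 fell, with *CCNB1* at −0.90 (adjusted p = 1.14e-23), the kinetochore gene *CENPF* at −0.77 (adjusted p = 2.41e-10) and *TOP2A*, which encodes topoisomerase IIα, at −0.39 (adjusted p = 4.45e-13).

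**Figure D5:**
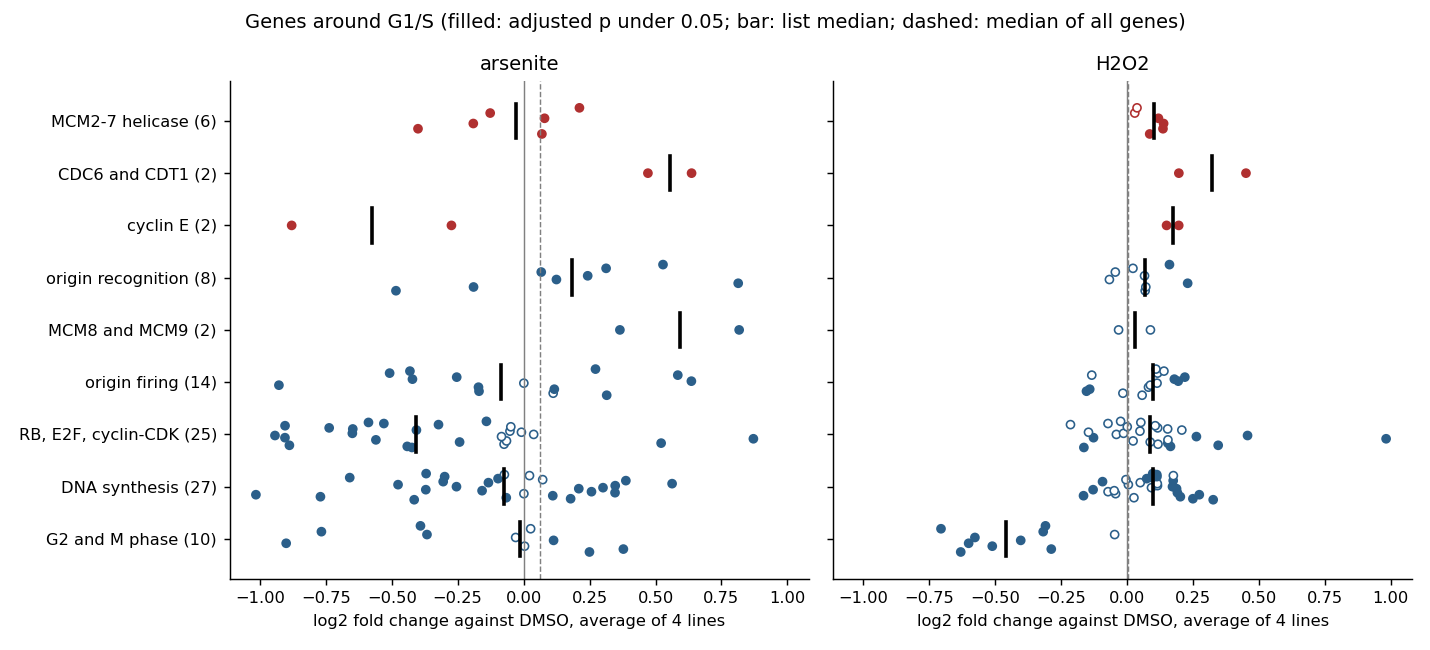
Log2 fold change against DMSO averaged over the 4 lines for each gene of the licensing and cyclin E groups (red) and the related lists (blue), with filled points at an adjusted p under 0.05, a bar at the list median and a dashed line at the median of all tested genes. With H2O2 the G2 and M phase list has its median at −0.46 and all red points are to the right of 0, and with arsenite the cyclin E and RB, E2F and cyclin-CDK groups lie mostly to the left.

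The genes whose levels were most like the mean log2 CPM of *MCM2* to *MCM7* over the 36 libraries were *BTG2* (Pearson's r 0.929), *KCNJ12* (0.917), *TLCD3A* (0.912), *PHLDA3* (0.907) and *SV2A* (0.903), among 14970 genes with a mean of at least 100 counts. Over the 34 libraries without both outlying ones the values for these genes were 0.923 to 0.959. The 6 helicase genes did not follow 1 shared pattern, since r over their 15 pairs ran from −0.824 to 0.911 with a median of 0.08. For deviations from the group means in the 34 libraries, r over these pairs ran from −0.599 to 0.771 with a median of 0.23. The mean of the 6 genes thus stands for none of them alone. The libraries share treatments and lines and are not independent points, so these values are a description.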

How the data were processed

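Messenger RNA from 36 samples of *TXNL1* KO HEK293T cells was sequenced as 100-bp paired-end reads from a strand-specific kit. According to the methods, the authors aligned reads to GRCh38 with qAlign of QuasR, and they deposited raw read counts per gene, without normalization or pooling. The submitters' processing notes also name DESeq2. The annotation release, the use of strand and whether both mates were counted are not given in the sources used here. No columns were left unmatched to a sample.

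The fits used R 4.3.3 with edgeR 4.0.16, which calls limma 3.58.1, applying TMM scaling, 1 mean for each of 12 groups over all 36 libraries and robust quasi-likelihood dispersions (biological coefficient of variation 12.4%). Genes needed at least 10 counts in total over the 3 vector DMSO libraries, as in the study, which left 22486 of the 42726 genes with at least 1 count. P-values were adjusted by Benjamini-Hochberg over these genes, and genes with an adjusted p under 0.05 count as called. Averaged contrasts weighted the 4 lines equally. Interaction tests had 3 degrees of freedom. CPM and RPKM were computed from the deposited counts and gene lengths. Of the gene identifiers, 61415 of 61587 were matched to a symbol.

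The 10 genes, the related lists and the alternatives were chosen with earlier results of these data known. In each related list, up to 3 called genes per agent with a mean of at least 100 counts and the largest log2 fold change are named. Alternatives were DESeq2 1.42.0 and its size factors, total counts, other filters, halved counts, the replicate number as a block, only the groups compared and libraries left out. The replicate numbers were checked for pairing by the correlation of deviations from the group means. All 3 same-numbered pairs were over 0.1 for the DR-RD line with DMSO and H2O2 alone (0.149 to 0.35), and that line was therefore also fitted alone with the replicate number as a block. The code was tested on simulated data. The labels do not say that replicates were separate cultures beyond their numbers, so p-values measure the spread between these samples. No pair of replicates was a duplicate (chi-square per degree of freedom 3.18 to 331). At the depth of 42072410 to 174119002 counts per library, the smallest count of any of the 10 genes in a library was 628, so that the spread between replicates and not counting limits the precision.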

Additional observations from a re-analysis of the deposited data

How the results depend on the processing

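All 10 genes were called with arsenite and 8 with H2O2, averaged over the lines. Under every alternative run, 8 to 10 and 6 to 8 were called, and 7 to 9 between arsenite and H2O2 (8 as reported, with *CDT1* lost without a filter). *MCM7* with H2O2, not called, went from 0.04 to −0.0041 without both outlying WT libraries.

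Within lines the counts moved more, and the cause was not tested beyond the settings named. The share of all tested genes called moved as well. With H2O2 in the vector line, 0.712% were higher as reported and 4.84% without both outlying libraries. In the DR-RD line alone, H2O2 gave 178 called genes without the block and 2144 with it. The counts below therefore describe the settings and are no result about the 10 genes. Without both outlying libraries, arsenite in the vector line gave 8 genes called (10 with only the groups compared), and H2O2 gave 6 in the vector, 4 in the WT, 5 in the DR-RD and 6 in the SxxS line. With only the groups compared, arsenite in the WT line gave 5, and H2O2 gave 6, 0, 0 and 6 in the same order. Without a filter, H2O2 gave 0, 1, 0 and 0. With total counts, it gave 2 in the vector and 0 in the DR-RD and SxxS lines, and with DESeq2's test 4, 2 and 2. WT against vector with DMSO gave 1 gene (*CCNE1*) in each of 3 settings, without both outlying libraries, with DESeq2's test and with only the groups compared. Leaving out 1 library, H2O2 gave 1 to 3 genes in the WT line (1 without WT DMSO replicate 1 or 2 or WT H2O2 replicate 2). It gave 0 to 1 in the DR-RD line (0 in each case but without DMSO replicate 1) and 0 to 1 in the SxxS line (0 in each case but without H2O2 replicate 1).

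Over 24 pairs of same-numbered libraries of a line, the correlation of deviations from the group means ran from −0.353 to 0.402, with 5 over 0.1, and 12 libraries matched their own number best. In the DR-RD line with H2O2 all 3 pairs were over 0.1 (0.149 to 0.35). With the replicate number as a block over all lines, 10 and 8 genes were called for the averaged comparisons, and no member's call changed in that fit. In the DR-RD line alone, an alternative added after the data were seen, the block gave 5 genes called higher with H2O2, against 5.87% of tested genes.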
